A study of Rattus norvegicus with 18 samples.

Results

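The average effect of experimental autoimmune myasthenia gravis (EAMG) over 3 muscles was taken from all 18 arrays of the series, 9 from rats with EAMG against 9 from control rats, with the muscle as a block. Each of 3 muscles had 3 EAMG and 3 control arrays: the diaphragm (DIA), which drives breathing, the toe-lifting extensor digitorum longus (EDL) of the leg, and the extraocular muscles (EOM) that turn the eye. The rats were females of the Lewis strain, 6 to 8 weeks old at the start. EAMG rats received 40 µg of acetylcholine receptor (AChR) from the electric organ of Torpedo in complete Freund's adjuvant (CFA) to which a further 0.5 mg of mycobacterium per rat was added, and control rats received CFA alone, so that both treatments share the adjuvant. Muscles were taken 6 weeks later. RNA of several rats went onto each array, a number that the sample labels give as 3 and the methods as 4 to 5 per tissue pool or 4 per array, so that differences between single rats cannot be seen. By the methods the 3 muscles were dissected from the same rats, so that the 9 arrays of a treatment are not 9 independent samples, and the fit treats them as if they were. Of 31042 probe sets other than array controls, the 10982 with a signal of 400 or more on 3 or more of the 18 arrays were tested, and they stand for 7204 named genes. A probe set is a group of short probes for one transcript, and a probe set was called at a limma adjusted p under 0.05.

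In EAMG, antibodies against the AChR bind the endplate, the patch of muscle membrane under the nerve ending, where they bring on complement attack and loss of receptors, so that nerve impulses fail to make the fibre contract. Fibres that lose this input switch on a known program of genes, among them those for receptor subunits, and lose protein through the ubiquitin ligases of the atrophy program. Illness with reduced food intake or raised glucocorticoid hormone also acts on muscle, where the hormone's receptor switches on genes that turn the fibre from glucose to fat as fuel and slow its growth.

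The ratio of 3' to 5' signal for GAPDH, which rises as RNA breaks down, was 1.20 ± 0.0706 on the control and 1.35 ± 0.498 on the EAMG arrays (SD, n = 9 each, two-sided exact permutation of treatment within muscle, p = 0.601), with 2.66 on DIA EAMG 3 as the highest value. The poly-A RNA added before labelling gave 13400 to 26800 on control arrays and 564 to 19800 on EAMG arrays (exact p = 0.0585), with the low values on DIA EAMG 2 and EOM EAMG 2. The median signal of a whole array was 149 ± 9.46 in control and 138 ± 11.5 in EAMG arrays (n = 9 each, exact p = 0.00925). With each array centred on the median of its 10982 tested probe sets, 2205 of the 2358 calls described next passed. That is another median than the one of the whole array, so this fit does not address the shift in the latter. All 10 markers of skeletal muscle passed the signal minimum, and Myh1 was the 1 among them that was called. Precision is limited by how few arrays there are, and p values measure the spread between arrays of pooled RNA, not between rats.

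The shared response was broad and mostly made of small changes. Of the 10982 probe sets tested, 2358 (21.5%) were called, with 1207 (11.0%) higher and 1151 (10.5%) lower in EAMG. These stand for 931 named genes higher and 784 lower, and 5 genes had probe sets called in both directions. The median size of a called change was 0.39 on the log2 scale, or 1.31-fold, against 0.15 over all probe sets tested. A change of 2-fold or more was found in 75 of the higher and 43 of the lower probe sets. Without the 3 arrays that stood apart in quality (DIA EAMG 2 and EOM EAMG 2 for poly-A, DIA EAMG 3 for GAPDH), 1251 probe sets were called, 1165 of which were among the 2358. With the arrays of each treatment and replicate number averaged to 1 value, 3 against 3, 831 were called, and 807 of these were among the 2358.

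In the main fit most of these probe sets were called in no single muscle, which did not hold in some of the alternatives given below. EAMG was set against control in each muscle alone, in one fit of the 6 group means, which called 382 probe sets (3.48%) in DIA, 820 (7.47%) in EDL and 181 (1.65%) in EOM. Of the 2358 called on average, 1462 (13.3% of those tested) passed in none of the muscles, where 9.94% of those tested passed in at least 1. Of the others, 652 passed in 1, 201 in 2 and 43 in all 3. The 1462 were 736 higher (6.70%) and 726 lower (6.61%) probe sets, with a median size of 0.34 (1.26-fold), and 1302 of them changed by less than 1.5-fold. In single muscles 127 of them had an unadjusted p under 0.05 in all 3, 1191 in 1 or 2, and 144 in none. The direction was the same in all 3 muscles for 2288 of the 2358 called (97.0%) and for 5706 of all probe sets tested (52.0%), a share that the choice of called probe sets itself raises. EAMG and control arrays did not overlap within any muscle, in the same direction throughout, for 506 probe sets (4.61% of those tested), and all 506 were called, 152 of them among the 1462.

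**Figure D1:**
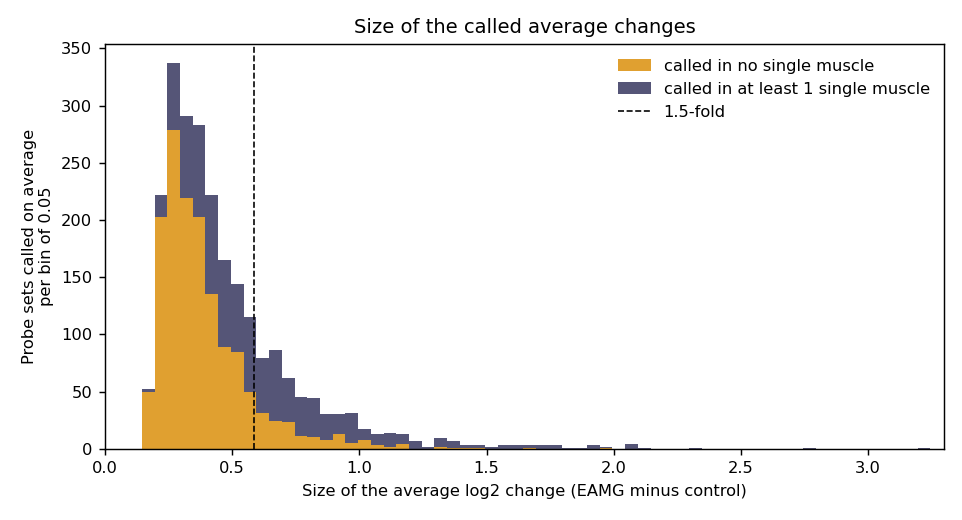
Number of probe sets called on average (vertical axis) by the size of their average log2 change (horizontal axis, bins of 0.05), divided into those called in no single muscle and those called in at least 1. The 1462 probe sets of the first kind lie mostly to the left of the dashed line at 1.5-fold, and the 43 lower and 75 higher changes of 2-fold or more form the thin tail to the right.

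Among the named rises stood Angptl4, which encodes a secreted inhibitor of lipoprotein lipase. Its signal was 22.8 at the lowest, 63.2 at the median and 196 at the highest over the 9 control arrays, and 179, 556 and 1360 over the 9 EAMG arrays. The groups overlapped by a narrow margin across muscles and not at all within a muscle. Every control array was under the signal minimum of 400, which the probe set passed through EAMG arrays alone, so that the direction is better measured than the size. The fitted average log2 change was 3.21 (SE 0.32, adjusted p = 9.37e-06 from limma), from 2.69 (DIA), 2.77 (EDL) and 4.18 (EOM). Fkbp5, a chaperone of steroid receptors that the glucocorticoid receptor induces, had control signals of 232 to 438 (median 369) and EAMG signals of 886 to 2090 (median 1420). No EAMG array reached down to the control arrays, in any muscle. The average rise of 2.07 (SE 0.11, adjusted p = 4.17e-09) had the smallest adjusted p of all probe sets tested, with 1.91, 2.16 and 2.14 in DIA, EDL and EOM, and a dimmer probe set of the gene rose by 2.76. That dimmer probe set was under 400 on every control array and passed the signal minimum through EAMG arrays alone. Ankrd1, a stretch-responsive protein of the sarcomere, lay at 169 to 788 (median 653) on control and 772 to 9360 (median 2530) on EAMG arrays. Its average change was 2.31 (SE 0.26), and within each muscle the EAMG arrays were all above the control arrays.

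Errfi1, a feedback inhibitor of the epidermal growth factor receptor, had nearly the same rise in each muscle. Its signal was 809 to 1480 (median 1170) on control and 2530 to 4410 (median 3640) on EAMG arrays, with no overlap. Single muscles rose by 1.61 (DIA), 1.56 (EDL) and 1.63 (EOM), and the average was 1.60 (SE 0.11, adjusted p = 2.41e-07). Ddit4, an inhibitor of the growth kinase mTOR, was at 686 to 1720 on control and 2530 to 9820 on EAMG arrays, a rise of 1.79 (SE 0.18). Fmo2, a flavin monooxygenase, was at 205 to 517 and 646 to 1580, a rise of 1.77 (SE 0.16). The treatments of neither gene overlapped. Gpnmb, a membrane glycoprotein of macrophages whose transcripts the authors attribute here to skeletal muscle, showed the other extreme. It rose by 1.69 (SE 0.41, adjusted p = 0.00819) with no single muscle called, and array EOM EAMG 3 had a signal of 12500 where the median of the EAMG arrays was 827. Adh1c, an alcohol dehydrogenase, was called on average (adjusted p = 0.0228), but its signal was 11.9 to 137 over both treatments in DIA and EDL, so that EOM alone, with 371 to 552 on control and 1570 to 6200 on EAMG arrays, gave signals above the minimum. Its call was lost without the 3 arrays that stood apart (adjusted p = 0.0743) and with no signal minimum (0.0825).

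Of the named genes that fell in all 3 muscles, the hemoglobin chains had the largest changes. Scd, a fatty acid desaturase, had a larger average of -1.98 (SE 0.65, adjusted p = 0.0372), made of -2.75, -3.21 and 0.00, which was called in 11 of 18 fits with 1 array left out and not without the 3 arrays that stood apart (adjusted p = 0.0958). Hbb, the beta chain, was at 3180 to 17500 (median 9140) on control and 999 to 4900 (median 2280) on EAMG arrays. Within each muscle the EAMG arrays were all below the control arrays, and the average change was -1.76 (SE 0.22, adjusted p = 5.54e-05). The alpha chain Hba-a3 changed by -1.57 (SE 0.16). The summed signal of 6 red blood cell markers, 3 of which stayed under 400 on every array, ranged from 4179 to 20445 in control and from 1580 to 5685 in EAMG arrays. In bulk RNA, fewer cells of a type and less RNA per cell cannot be told apart, here and in every result that follows.

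Neu2, a cytosolic sialidase, was at 986 to 2470 (median 1510) on control and 215 to 961 (median 536) on EAMG arrays, with no overlap. It fell by 1.55 on the log2 scale (SE 0.17, adjusted p = 2.49e-05), past the threshold in each muscle. Dyrk2, a protein kinase, was even at -1.36 (DIA), -1.33 (EDL) and -1.36 (EOM) and an average of -1.35 (SE 0.18). Nrep, a neuronal regeneration related protein, went from a median of 9410 to 4040 and changed by -1.38 (SE 0.21), with no overlap in signal (control from 7150, EAMG up to 5960). Nmrk2, a kinase of NAD synthesis, was called on average at -1.24 (SE 0.38, adjusted p = 0.0293), yet its values of -0.39, -2.93 and -0.39 were far from equal. The F test of a difference between muscles gave it an adjusted p of 0.241, and its average was not called without the 3 arrays that stood apart (adjusted p = 0.115).

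**Figure D2:**
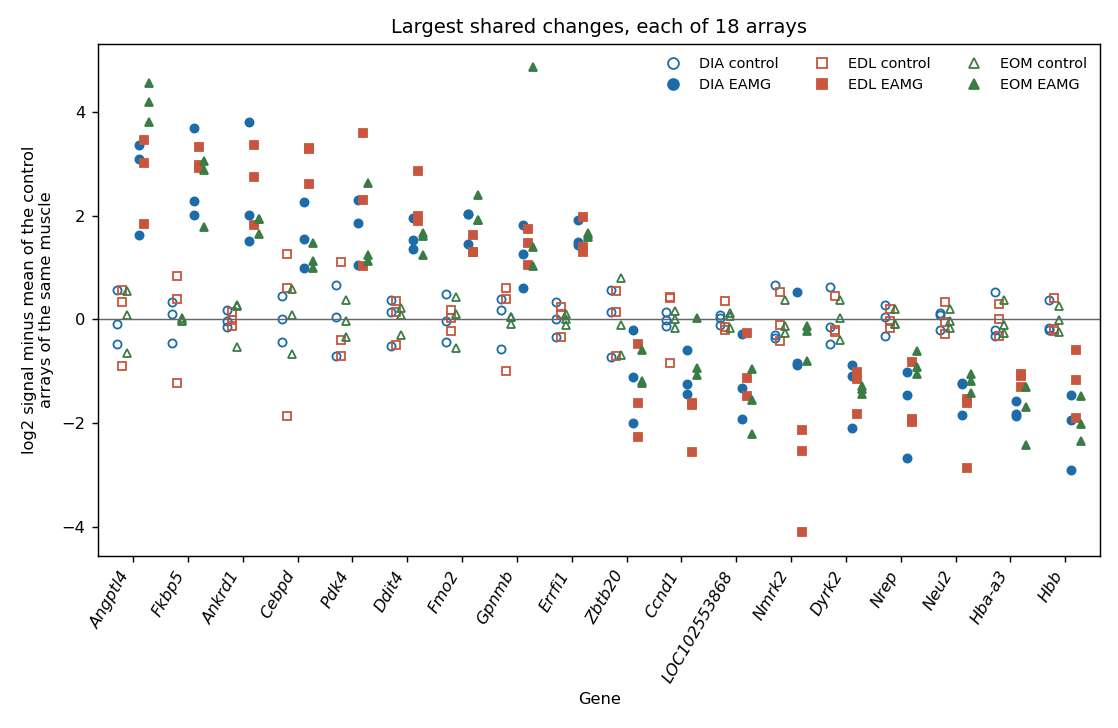
Each of the 18 arrays for the 9 largest rises and the 9 largest falls by the rule for named genes: log2 signal minus the mean log2 signal of the control arrays of the same muscle (vertical axis), open symbols for control and filled for EAMG, with shape and colour giving the muscle. Fkbp5, Cebpd and Pdk4 are shown by dimmer probe sets that met the rule, with averages of 2.76, 1.95 and 1.90. For Errfi1 the EAMG arrays of all 3 muscles lie close together around the average of 1.60, while Gpnmb has 1 EOM array at 4.86 and Nmrk2 has its low values in EDL.

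Of 21 tested genes of the glucocorticoid receptor and its targets, 17 rose and 1 fell, with a median average change of 1.08. The background for all lists is the same count with 1 probe set for each of the 7204 named genes, of which 861 (12%) rose and 725 (10.1%) fell, with a median of 0.02. The fall was that of the receptor gene itself, Nr3c1, which was at 1790 to 3210 (median 2800) on control and 1290 to 2860 (median 2320) on EAMG arrays. It changed by -0.27 (SE 0.08, adjusted p = 0.0215), below its muscle's control mean on 9 of 9 EAMG arrays, and was called in no single muscle. Among the targets, Nfkbia, the inhibitor that holds NF-kB in the cytosol, rose by 1.32 (SE 0.11), from 763 to 1800 on control to 2490 to 3780 on EAMG arrays without overlap. The transcription factors Cebpd and Cebpb rose by 1.92 (SE 0.22) and 1.08 (SE 0.17), and the clock gene Per1 by 0.61 (SE 0.09) with 0.63, 0.62 and 0.58 in the 3 muscles. The median of the list on a single array lay between -0.13 and 0.12 on control arrays, relative to the control mean of the muscle, and between 0.66 and 1.35 on EAMG arrays. Without the 3 arrays that stood apart 16 members rose, and 15 rose without each muscle in turn, while Nr3c1 was called in none of these fits.

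The list of genes known to rise on denervation had 12 of 17 tested members higher and none lower, with a median of 0.92, and 5 of the 17 did not pass. Without DIA 7 of them were called. Some members also stand on the glucocorticoid list, among them Cdkn1a. Gadd45a, a stress protein, rose alike in the 3 muscles, by 1.18, 1.26 and 1.25, and on average by 1.23 (SE 0.11, adjusted p = 2.43e-06). Its signal was 510 to 3720 on control and 1230 to 9810 on EAMG arrays, which overlapped across muscles but not within any of them. Runx1, a transcription factor of denervated muscle, rose by 1.34 (SE 0.22), Csrp3, a Z-disc protein, by 1.18 (SE 0.21), and Ncam1, an adhesion molecule, by 0.65 (SE 0.12). The smallest called rise of the list was that of Myog, the myogenic factor that drives receptor genes, with 0.14 in DIA, 0.61 in EDL and 0.65 in EOM. Its average of 0.47 (SE 0.14, adjusted p = 0.0285) was called while no single muscle was, in 11 of 18 fits with 1 array left out (adjusted p = 0.0565 without EDL EAMG 3).

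Of 13 genes of the acetylcholine receptor and the endplate, 3 rose, all of them receptor subunits. Chrna1, the subunit that binds acetylcholine, was at 430 to 2600 (median 689) on control and 612 to 6660 (median 1020) on EAMG arrays. These ranges overlap because the muscles differ in level, and 9 of 9 EAMG arrays lay above the control mean of their muscle. It rose by 0.79 (SE 0.13), with 0.67, 0.49 and 1.22 in DIA, EDL and EOM. Chrne, the adult subunit, rose by 0.63 (SE 0.16, adjusted p = 0.00902) and was called in no single muscle, with 0.58, 0.77 and 0.53. Chrnd rose by 0.62 (SE 0.13). Chrnb1, the beta subunit, had values of 0.09, -0.48 and 0.36 and an average of -0.01 (SE 0.16, adjusted p = 0.966). None of the 6 endplate organizers tested was called. With 1 value per treatment and replicate number, 1 of the 3 rises was called.

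Genes of muscle protein loss rose in part. Of 17 atrophy ligases and FoxO genes, 9 rose and none fell, with a median of 0.30. Trim63, the ubiquitin ligase MuRF1, was at 1710 to 4630 (median 3680) on control and 1800 to 16200 (median 6230) on EAMG arrays, and rose by 1.07 (SE 0.21, adjusted p = 0.00228). It was 1.39 in DIA and 1.31 in EDL, against 0.52 in EOM, where the treatments overlapped. Fbxo32, the ligase atrogin-1, was at 182 to 332 on control and 175 to 1180 on EAMG arrays. Its control arrays were all under the signal minimum, which it passed through EAMG arrays alone. It had 1.21, 1.36 and 0.13 in DIA, EDL and EOM, and an average of 0.90 (SE 0.28, adjusted p = 0.0288). That call held in 11 of 18 fits with 1 array left out (adjusted p = 0.061 without DIA EAMG 2) and not without the 3 arrays that stood apart (0.0925). FoxO factors switch on both ligases, and 2 of their genes were more even. Foxo3 rose by 0.76 (SE 0.11), with 0.67, 0.76 and 0.85 in DIA, EDL and EOM. Foxo4 was at 951 to 2470 on control and 1390 to 3100 on EAMG arrays. Its changes of 0.36, 0.36 and 0.41 made an average of 0.37 (SE 0.06, adjusted p = 0.000485), which was called although no single muscle was. Without DIA 4 of the 17 were called.

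The stretch before Trim63 holds a FoxO motif, and it is printed because the ligase and the genes of FoxO factors are on the same list. The sequence is RefSeq's on build GRCr8, the 223 bases of the plus strand before the annotated gene, chr5:151816986-151817208, with the motif TGTTTAC in capitals.
Trim63: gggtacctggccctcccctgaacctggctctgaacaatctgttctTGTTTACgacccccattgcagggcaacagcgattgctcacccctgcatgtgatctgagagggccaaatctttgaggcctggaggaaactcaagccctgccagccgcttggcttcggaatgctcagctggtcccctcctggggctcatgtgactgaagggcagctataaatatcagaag
The motif was searched on both strands in the 250 bases before the RefSeq start. It was found for 2 of the 13 list members with a window, Trim63 and Mdm2, and in 3.21% of all 33469 windows. A glucocorticoid response element, as spaced inverted repeats, was found in 0.0359% of all windows and in none of the 19 for the glucocorticoid list, which says no more than that these letters are not in these windows.

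Of 36 proteasome subunits tested, 12 rose and 1 fell on average, with a median of 0.29 both in DIA and in EDL and of -0.02 in EOM. The rises were mostly in the regulatory cap, which unfolds tagged proteins, with 10 of 18 members, against 1 of 15 in the core. Psmd2, a cap subunit, had 0.61 in DIA, 0.56 in EDL and 0.06 in EOM and an average of 0.41 (SE 0.10, adjusted p = 0.00698). Psmb10, a core subunit that interferon induces, went the other way and was even, with -0.41, -0.37 and -0.40 and an average of -0.39 (SE 0.10, adjusted p = 0.0118). The count of rises moved with the arrays, since 1 member was called higher without the 3 that stood apart, none without DIA or without EDL, and 15 without EOM. In autophagy, Gabarapl1, which coats the growing vesicle, rose by 0.74 (SE 0.12), and Ctsl, a lysosomal protease, by 0.96 (SE 0.16), among 6 rises and 1 fall of 30 members, with 3 rises without the 3 arrays that stood apart.

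Genes that put fat in the place of glucose rose in part. Of 20 members of the PPAR and fuel switch list, 9 rose and 1 fell. Pdk4, the kinase that shuts off pyruvate dehydrogenase and so keeps glucose carbon out of the citric acid cycle, was at 3650 to 10900 (median 6420) on control and 10700 to 22800 (median 17500) on EAMG arrays. It rose by 1.40 (SE 0.15, adjusted p = 1.94e-05), with 1.21, 1.80 and 1.21 in the muscles, and each single muscle was called. Pnpla2, the first lipase to act on stored fat, was at 1590 to 2810 and 3420 to 6730, without overlap, and rose by 1.16 (SE 0.10). G0s2, the inhibitor of this lipase, changed by -0.63 (SE 0.20, adjusted p = 0.0322) with no single muscle called, from -0.83 in DIA to -0.30 in EOM. Ppargc1b, a coactivator of mitochondrial and fat genes, was the member that fell, by 0.96 on the log2 scale (SE 0.13).

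Smaller rises lay further along the same route. Of 29 genes of fatty acid uptake and oxidation 10 rose and 1 fell, 6 of the 11 with no call in a single muscle, and the list median was 0.09. The 16 oxidation genes had 4 rises and a median of 0.0. In the list 7 rose without the 3 arrays that stood apart and 4 with 1 value per treatment and replicate number. Cpt1b, which brings fatty acids into the mitochondrion, was at 6020 to 11100 (median 7550) on control and 7710 to 13000 (median 9950) on EAMG arrays, and within each muscle the EAMG arrays were all above the control arrays. Its values of 0.32, 0.30 and 0.48 were each short of the threshold, and the average was 0.37 (SE 0.07, adjusted p = 0.00228). Decr1, an enzyme for unsaturated fatty acids, rose by 0.50 (SE 0.07), Slc27a1, a fatty acid transporter, by 0.80 (SE 0.11), and the scavenger receptor Cd36 by 0.67 (SE 0.17). In glycolysis and glycogen use, 6 of 28 members fell and 1 rose, and 3 fell without the arrays that stood apart. Ldha, which makes lactate, changed by -0.41 (SE 0.08, adjusted p = 0.00168), and Pfkfb3, which makes the activator of phosphofructokinase, rose by 1.38 (SE 0.25).

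Genes of the respiratory chain fell by small amounts, mostly without a call in a single muscle. Of 58 tested subunits of complexes I, III and IV and of ATP synthase, 36 fell on average and none rose, all 58 values lay below 0, and 31 of the 36 were called in no single muscle. The median average change was -0.23, with -0.26 in DIA, -0.23 in EDL and -0.21 in EOM. By complex, 18 of 29 subunits of complex I fell, 5 of 7 of complex III, 6 of 11 of complex IV and 7 of 11 of ATP synthase, with medians from -0.25 to -0.23. Ndufa2, a complex I subunit, was at 10000 to 11900 (median 10500) on control and 7740 to 10200 (median 8910) on EAMG arrays. The treatments overlapped by a narrow margin across muscles and not within any muscle. The average change was -0.28 (SE 0.05, adjusted p = 0.00124), from -0.30, -0.29 and -0.25. The complex IV subunits Cox7a1 and Cox5a had the largest falls, by 0.83 (SE 0.18) and 0.72 (SE 0.12) on the log2 scale, and Cox5a was called in no single muscle at -0.67, -0.76 and -0.73.

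On single arrays, the median over the 58 subunits lay between -0.04 and 0.05 on control arrays, relative to the control mean of the muscle, and between -0.40 and -0.01 on EAMG arrays. All 9 EAMG arrays were below 0, with EOM EAMG 1 at -0.01, DIA EAMG 1 at -0.12 and the other 7 between -0.40 and -0.21. The number of subunits called moved with the arrays, from 26 to 46 with 1 array left out. It was 16 without the 3 arrays that stood apart, 14 with no signal minimum and 3 with 1 value per treatment and replicate number, while the median change was -0.18, -0.23 and -0.23 in these fits. The 10 markers of skeletal muscle had a median change of -0.12 and a summed signal of 209225 to 365595 on EAMG and 278944 to 424184 on control arrays, and their part in the fall was not tested.

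**Figure D3:**
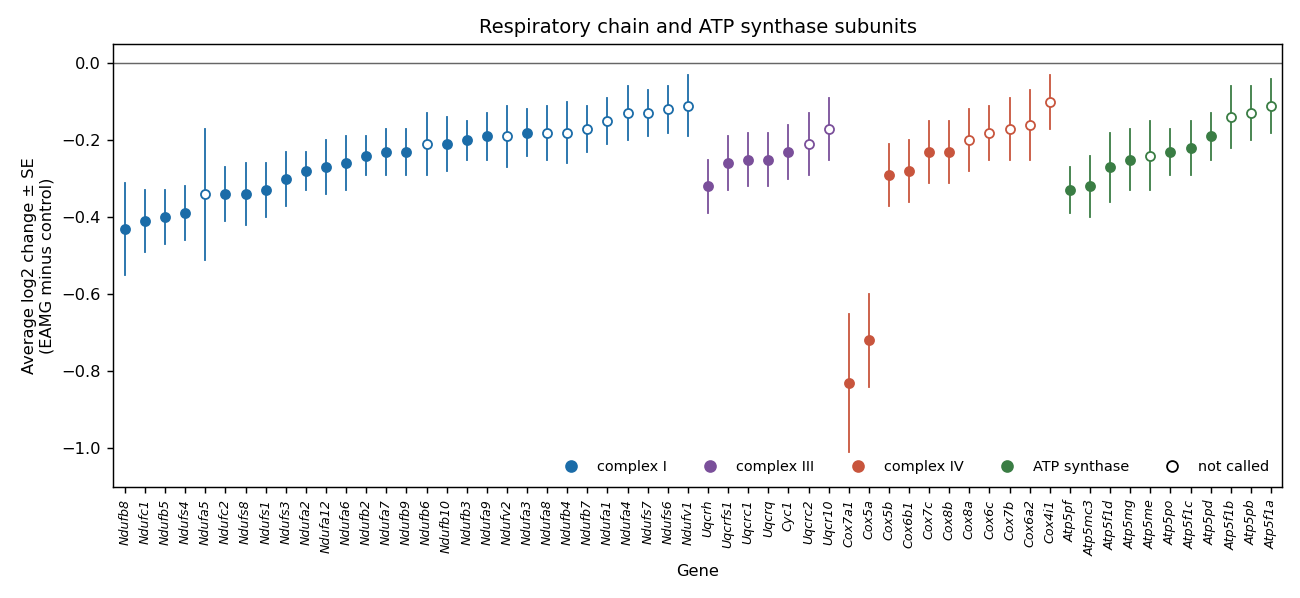
Average log2 change in EAMG ± SE from limma (vertical axis) of 58 subunits of the respiratory chain and ATP synthase, ordered within complex I, III, IV and ATP synthase. Filled points mark the 36 called subunits and open points the others, and every point lies below 0.

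Enzymes that feed the chain fell by similar small amounts. Of 24 genes of the citric acid cycle and pyruvate dehydrogenase, 10 fell, 8 of them with no call in a single muscle, and Pdk4 alone rose. Sdhc, a subunit of succinate dehydrogenase, was at 12000 to 15000 on control and 7430 to 13400 on EAMG arrays and changed by -0.39 (SE 0.09, adjusted p = 0.00596). Idh3a, the NAD-linked isocitrate dehydrogenase, changed by -0.30 (SE 0.06), and Mdh2, the mitochondrial malate dehydrogenase, by -0.31 (SE 0.07). Mpc1, a subunit of the carrier that brings pyruvate into the mitochondrion, is on none of these lists and had one of the smallest p values among small changes. It was at 15100 to 19500 (median 17400) on control and 10600 to 16600 (median 13800) on EAMG arrays, and changed by -0.40 (SE 0.07, adjusted p = 0.000844) with -0.41, -0.40 and -0.38 in the 3 muscles. Perm1, a muscle regulator of oxidative genes, fell by 0.95 on the log2 scale (SE 0.16) with EAMG below control arrays in each muscle. With 1 value per treatment and replicate number no member of this list was called lower, and without the 3 arrays that stood apart 6 were.

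The 12 small changes with the lowest p in each direction, all under 1.5-fold and called in no single muscle, had changes of similar size in the 3 muscles, which this choice favours. Supt5h, an elongation factor of RNA polymerase II, had 0.37, 0.36 and 0.37, from signals of 1870 to 2960 on control and 2280 to 3710 on EAMG arrays, and an average of 0.37 (SE 0.06, adjusted p = 0.000553). Eftud2, a GTPase of the spliceosome, was at 848 to 1040 and 1050 to 1430, so that its treatments did not overlap across any of the 18 arrays. Scap, which escorts the sterol-sensing transcription factors, was at 492 to 702 and 727 to 1130, also without overlap, and rose by 0.52 (SE 0.09). Ifngr1, a chain of the interferon-gamma receptor, rose by 0.50 (SE 0.09), with 0.45, 0.42 and 0.63. Trim54, a relative of MuRF1 in the sarcomere, rose by 0.45 (SE 0.08). On the side of the falls stood Tmem126b and Ndufaf8, both assembly factors of complex I, with changes of -0.30 (SE 0.05) and -0.36 (SE 0.07). Dusp22, a phosphatase, changed by -0.44 (SE 0.08), and Trib2, a pseudokinase, by -0.51 (SE 0.09), with -0.53, -0.49 and -0.51. All 24 passed with any 1 array left out, and 9 of the 12 rises and 6 of the 12 falls passed with 1 value per treatment and replicate number.

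**Figure D4:**
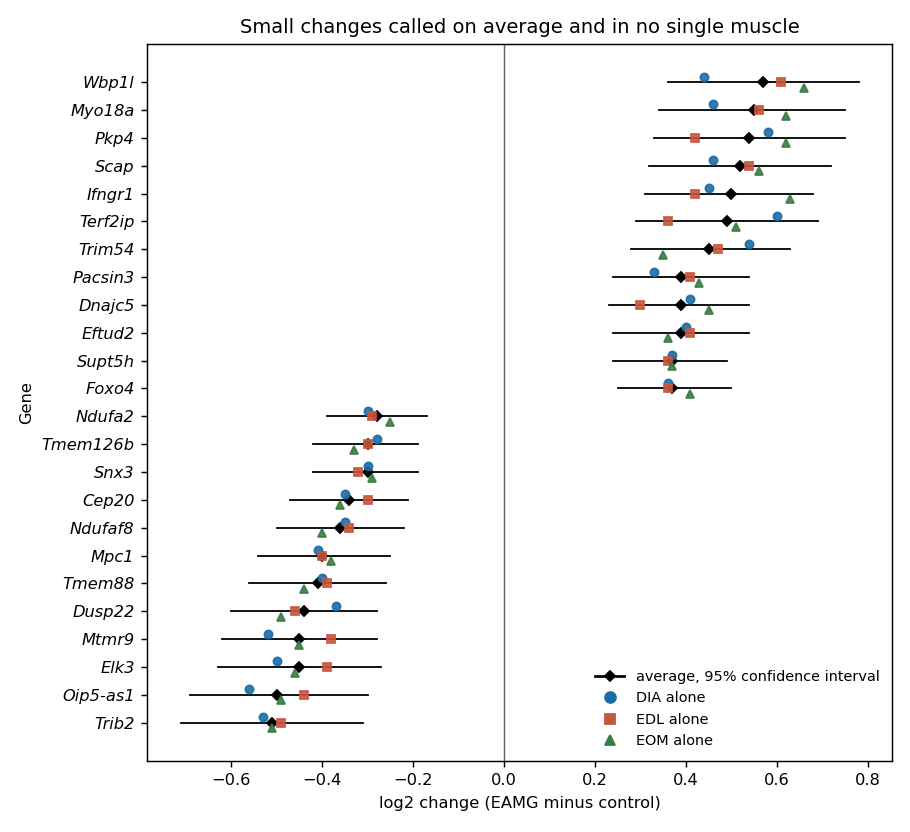
Average log2 change with its 95% confidence interval (black diamonds and lines) and the change in DIA, EDL and EOM alone (coloured symbols) for the 12 rises and 12 falls under 1.5-fold with the smallest p among genes called in no single muscle. The 3 muscles of a gene lie close together, as for Supt5h at 0.37, 0.36 and 0.37, and no confidence interval reaches 0.

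Genes of the extracellular matrix fell in part. Of 46 tested, 18 fell and 1 rose, with a median of -0.27, and 8 of the 12 collagens were among the falls. Col3a1, a collagen of soft tissue, was at 4950 to 15500 (median 14400) on control and 2420 to 15300 (median 5600) on EAMG arrays. It changed by -0.96 (SE 0.19, adjusted p = 0.00236), with -1.13 in DIA, -1.37 in EDL and -0.38 in EOM. Col1a1, the main chain of fibrous collagen, had -1.44, -1.31 and 0.17 and an average of -0.86 (SE 0.24), and the list medians were -0.28, -0.44 and -0.07 in DIA, EDL and EOM. Mfap4, a protein of elastic fibres, was more even, with -1.30, -1.15 and -1.07 and an average of -1.17 (SE 0.17, adjusted p = 0.000204). The rise was that of Lama2, the laminin chain of the sheath around fibres, by 0.54 (SE 0.10). The summed signal of 9 fibroblast markers, which include collagens of this list, ranged from 29761 to 91984 (median 63801) on control and 29261 to 85912 (median 46330) on EAMG arrays. Among the markers, the defining Dcn and Pdgfra had 0.07 and 0.09 and were not called, and 5 of the 9 fell. The part of cell numbers in the fall was not tested. Without the 3 arrays that stood apart 9 members fell, without DIA 6 and without EDL 8.

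Genes of the endothelium and of the response to low oxygen fell in part, 8 of 24, and 2 rose. Apln, a peptide that acts on vessels, fell by 1.09 on the log2 scale (SE 0.15), and its receptor Aplnr by 0.88 (SE 0.15). Ndufa4l2, which low oxygen induces, was at 327 to 488 (median 381) on control and 151 to 280 (median 226) on EAMG arrays, without overlap, and changed by -0.90 (SE 0.10, adjusted p = 2.87e-05) with -0.93, -0.82 and -0.96. Apln, Aplnr and Ndufa4l2 were each under 400 on every EAMG array and passed the signal minimum through control arrays alone. Cxcl12, a chemokine of vessel walls, changed by -0.79 (SE 0.11), and each single muscle was called. Cldn5, a tight junction protein of endothelium, rose by 0.64 (SE 0.09). The 10 endothelial markers had 2 members higher and 2 lower and summed to 6226 to 10922 on control and 6299 to 10532 on EAMG arrays.

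Of 30 genes that take up or use amino acids 11 rose and 3 fell, against 8 and 3 without the 3 arrays that stood apart. Among those that use them, 2 of 12 branched-chain genes rose and 1 fell (median 0.04). A further 10 had 3 rises and 2 falls (median -0.1). The neutral amino acid carriers were prominent, with 6 of 8 transporters higher and a median of 0.56. Slc38a4 rose by 0.76 (SE 0.10), with 0.62, 0.60 and 1.06 and each single muscle called, and Slc38a2 by 0.48 (SE 0.08). Glul, which makes glutamine, was at 9490 to 17800 (median 11300) on control and 10600 to 29700 (median 17500) on EAMG arrays and rose by 0.57 (SE 0.09). Gpt, the alanine transaminase, was at 1230 to 1940 and 557 to 1330 and changed by -0.74 (SE 0.10, adjusted p = 8.26e-05). In insulin and growth factor signalling 8 of 27 rose and 3 fell, and the receptors Insr and Igf1r rose by 0.67 (SE 0.11) and 0.45 (SE 0.11), the second in no single muscle. Igfbp3, which binds insulin-like growth factors, rose by 1.30 (SE 0.19), and Grb14, an inhibitor of the insulin receptor, changed by -0.59 (SE 0.10).

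Of 28 translation factors 8 rose and 1 fell, with 4 rises without the arrays that stood apart. Eef2, the factor that moves the ribosome along, was at 8340 to 11000 (median 9840) on control and 9380 to 14500 (median 13200) on EAMG arrays and rose by 0.37 (SE 0.06), with 0.39, 0.39 and 0.32. Eif4ebp1, a brake on initiation, rose by 0.82 (SE 0.17), and Eif4e3, a cap-binding protein, changed by -0.85 (SE 0.10) with each single muscle called. Of 33 ribosomal proteins 7 rose and none fell, with medians of 0.13 (DIA), 0.23 (EDL) and -0.04 (EOM). That count ranged from 5 to 12 with 1 array left out and was 0 without DIA and 1 without EDL. Of 24 genes of stress in the endoplasmic reticulum 6 rose and 1 fell, against 2 rises without the 3 arrays that stood apart, and Chac1, which breaks down glutathione, rose by 0.83 (SE 0.18). Of 23 heat shock genes 5 fell and 2 rose, against 1 fall and no rise without those arrays, and Hspd1, the mitochondrial chaperonin, changed by -0.29 (SE 0.06).

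Of 30 genes of metal binding and antioxidant defence, 9 rose and 3 fell. Gpx3, the secreted glutathione peroxidase, was at 2250 to 6830 (median 6420) on control and 5280 to 13500 (median 9780) on EAMG arrays and rose by 0.80 (SE 0.10, adjusted p = 7.04e-05). Mt2A, a metallothionein, was at 469 to 1130 (median 893) and 1010 to 3650 (median 1910), with EAMG wholly above control arrays in EDL alone, and rose by 1.10 (SE 0.22). Metal and glucocorticoid both induce metallothioneins, and the 250 bases before the gene are printed for their metal response elements. They lie on the minus strand of GRCr8, chr19:10838709-10838958, with 4 matches to TGCGCNC or TGCACNC, on either strand, in capitals.
Mt2A: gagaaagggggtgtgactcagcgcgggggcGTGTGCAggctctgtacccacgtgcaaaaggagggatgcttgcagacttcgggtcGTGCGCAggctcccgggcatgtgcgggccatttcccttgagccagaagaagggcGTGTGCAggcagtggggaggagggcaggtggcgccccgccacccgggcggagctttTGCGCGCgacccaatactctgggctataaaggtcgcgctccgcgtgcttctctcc
Of all windows, 11.8% held the first of these motifs and 10.3% the second, each counted once per window.

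Counts of interferon and complement genes are to be read beside the background of 12% higher and 10.1% lower. Of 39 interferon and antigen presentation genes on the array 23 were tested, of which 1 rose and 3 fell. Oas1a, an antiviral enzyme, was at 213 to 368 (median 289) on control and 409 to 762 (median 550) on EAMG arrays, without overlap, and rose by 0.95 (SE 0.11). Its control arrays were all under the signal minimum of 400, which it passed through EAMG arrays alone. Cd1d1, which presents lipids to T cells, was at 468 to 1810 and 273 to 1080, and changed by -0.86 (SE 0.09, adjusted p = 9.37e-06) with -0.96, -0.79 and -0.84. Of 16 complement genes on the array 13 were tested. None of them rose, and 1 fell, the membrane regulator Cd55 at -0.36 (SE 0.10), with -0.01 in DIA. In NF-kB signalling 6 of 17 rose and 1 fell, led by Nfkbia and by Il6r, the interleukin 6 receptor, at 1.01 (SE 0.14). Il6r was at 147 to 333 on control arrays, and it too passed the minimum through EAMG arrays alone. Of 11 macrophage markers tested 3 rose, Gpnmb, Spp1 and Cd163, while 10 had an average above 0 and the median change was 0.42. Spp1 and Cd163 were under 400 on every control array and passed the signal minimum through EAMG arrays alone. The call of Cd163 (limma adjusted p = 0.0406) held in 4 of 18 fits with 1 array left out. It was lost without the 3 arrays that stood apart (0.192). The summed signal of 15 macrophage markers ranged from 2811 to 20030 (median 10345) on control and 3286 to 44032 (median 16044) on EAMG arrays. All 8 T cell markers on the array were below 400 on every array.

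Of 15 p53 targets and cell cycle genes 8 rose and 2 fell, the latter being Ccnd1 and Ccnd2, cyclins that start the cycle, and 5 rose without the arrays that stood apart. Sesn1, a p53 target that restrains mTOR, was at 1220 to 1930 (median 1370) on control and 1620 to 5410 (median 2710) on EAMG arrays and rose by 1.04 (SE 0.18). Of 17 immediate early genes 5 rose, with Zfp36, which speeds the decay of cytokine mRNA, at 736 to 1230 and 1530 to 3030, without overlap, and a rise of 1.13 (SE 0.14, adjusted p = 4.62e-05). In the circadian clock 3 of 17 rose and 2 fell. Nfil3, a repressor in the clock's output, rose by 1.14 (SE 0.22), and Nr1d1 changed by -0.44 (SE 0.14) with no single muscle called, in 13 of 18 fits with 1 array left out (adjusted p = 0.0605 without EDL EAMG 3).

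Few contractile and membrane genes were called. Of 18 fast fibre genes 2 fell, Myh1, a fast myosin, at -0.37 (SE 0.07) and the calcium buffer Pvalb at -0.58 (SE 0.14), and the median was -0.14 with no member above 0. Of 16 slow fibre genes 2 rose and 1 fell. Of 18 genes of excitability and calcium release 1 rose and 1 fell, and of 24 myogenic and regeneration genes 1 rose and 2 fell, which are shares close to or below the background of 12% and 10.1%. The p values that miss the threshold do not show that these genes were alike in both treatments.

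**Figure D5:**
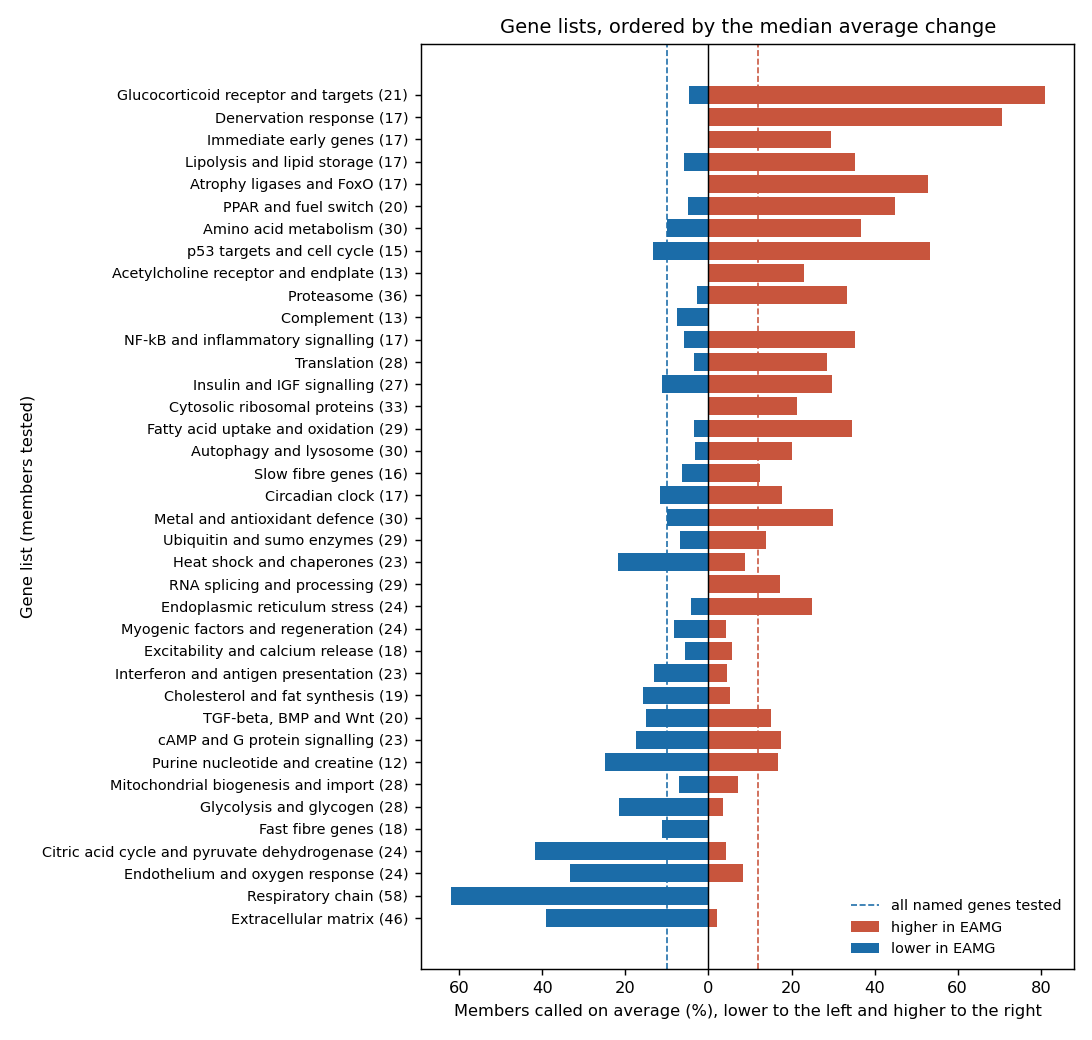
Percent of the tested members of each of 38 gene lists called higher (right) and lower (left) in EAMG on average, lists ordered by their median average change and the number of tested members in brackets. Dashed lines mark the 12% higher and 10.1% lower over all named genes. The glucocorticoid list at 17 of 21 higher and the respiratory chain at 36 of 58 lower reach farthest.

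A difference between muscles in the effect of EAMG was called for 14 of 10982 probe sets (0.127%), and 4 of these were also called on average. Cdkn1a, the cell cycle inhibitor p21, rose in every muscle but unequally, by 1.30 in DIA, 2.59 in EDL and 0.77 in EOM, with an average of 1.55 (SE 0.21) and an adjusted p of 0.019 for the difference. Pln, phospholamban, a brake on the calcium pump of the sarcoplasmic reticulum, changed by -2.27 in DIA, -0.36 in EDL and 0.08 in EOM, around an average of -0.85 (SE 0.27), with an adjusted p of 0.00298 for the difference. The average was called in 11 of 18 fits with 1 array left out (adjusted p = 0.0627 without DIA EAMG 2) and not without the 3 arrays that stood apart (0.143). A second probe set of Pln had -1.21, 0.28 and 0.50 and an average of -0.15 (adjusted p = 0.637), with an adjusted p of 0.005 for the difference. For Akip1, which binds protein kinase A, the 2 probe sets rose in DIA and EOM and lay at -0.29 and -0.24 in EDL, and neither average was called without the 3 arrays that stood apart (adjusted p = 0.219 and 0.134). For the rest of the 2358 probe sets called on average a difference between muscles was not called, which does not show that the 3 effects were equal.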

How the data were processed

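RNA pooled from DIA, EDL and EOM of EAMG and control rats was measured on 18 Affymetrix rat arrays, 3 for each of the 6 groups of muscle and treatment. The authors made the deposited values with GCOS 2.0 as 1 intensity per probe set, and the trimmed mean (2% left off at each end) was 500.2 on every array, so that they had been scaled to a common level. Their calls of change were not used here. No pair of arrays held identical values. Of 31042 probe sets, 20826 had 1 gene symbol in the platform annotation, 436 several and 9780 none, and 57 array controls were set aside.

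The log2 intensity was fitted with limma 3.58.1 (R 4.3.3, statmod 1.5.0; lmFit and eBayes) on muscle and treatment, with 14 residual degrees of freedom, and p values were adjusted by Benjamini-Hochberg over the 10982 probe sets with 400 or more on at least 3 arrays. Per the methods the authors corrected signals with mismatch probes and took 400 as above background, since fold differences are distorted at low signal. Effects in single muscles and the F test of a difference between them came from a fit of the 6 group means. Quality values were compared by exact permutation of treatment within muscle (8000 arrangements, smallest two-sided p 0.00025). The steps were tested on simulated data. Tables and figures were made with python 3.11.15, pandas 2.3.3, numpy 2.4.6 and matplotlib 3.10.9.

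The average over muscles, the gene lists and the marker lists were chosen with earlier results of these data known. The 38 process lists held 1208 entries, of which 1067 were on the array and 913 were tested, and the 15 marker lists held 129, 111 and 66. A gene stands for its probe set of highest mean signal unless an identifier is given. Genes named for a large change, a small p or a difference between muscles stand for the probe set that met that rule, which can be dimmer. For Fkbp5, Cebpd and Pdk4 the text mainly gives the brighter probe set. Genes were named as the 15 largest called rises and falls with 1 symbol, the same direction in 3 muscles and a mean signal of 400 in the higher treatment, as the 12 smallest p in each direction among changes under 1.5-fold called in no single muscle, as up to 4 called members per list with the largest change, or as called both on average and for a difference between muscles. Members on which a statement turns, such as those not called, were named beside these. Promoter sequences and coordinates are those of RefSeq for GRCr8. By the methods the 3 replicates came from repeats of the study, so that arrays with the same number may share an experiment. The labels do not say what a replicate number marks, and not every pair of arrays with the same number correlated above 0.1. The numbers were used as a block, a random block and a unit of averaging only as alternatives, and the main fit leaves a sharing of experiments out of account. Alternatives were another signal minimum, scaling, variance model or block, and leaving out arrays or muscles.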

Additional observations from a re-analysis of the deposited data

Results flagged for a closer look

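In 6 of 108 groups of 9 arrays, taken from the 15 largest rises and falls and the small changes, 1 array lay far from the others, and chance gives this in about 1 in 20 groups. Values are log2 signal minus the control mean of the muscle. Ddit4 was at 2.86 on array EDL EAMG 3, where the other EAMG arrays lay at 1.23 to 2.00. Gpnmb was at 4.86 on EOM EAMG 3, with the others at 0.61 to 1.81. Neu2 was at -2.86 on EDL EAMG 2, with the others at -1.84 to -1.05. Ccnd1 was at -0.84 on EDL control 3, with the other control arrays at -0.16 to 0.44. Rrad, a small GTPase, was at 1.37 on EDL EAMG 2 where the others lay at -2.41 to -1.04, the opposite side of 0. Kash5, a nuclear envelope protein, was at -3.74 on DIA EAMG 2, an array of low poly-A signal, with the others at -1.15 to -0.16.

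The effect of EAMG differed between muscles, by the F test in limma, for 4 of the probe sets called on average. The adjusted p was 0.00298 for Pln, 0.00873 and 0.0105 for the 2 such probe sets of Akip1 and 0.019 for Cdkn1a, and the values by muscle are given above.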

How the results depend on the processing

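All 2358 probe sets called on average kept their direction in each alternative in which they were tested (2044 of them with a mean signal of at least 400), and none of the 6839 fits of named genes reversed. In 6240 of these fits the gene passed the threshold. Of the counts over all probe sets, 113 stayed within 1.5 times the reported one and 28 did not. The reported counts are 1207 higher, 1151 lower, 1462 called in no single muscle and 14 with a difference between muscles.

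With no signal minimum, where 31042 probe sets were tested, 605 were higher, 714 lower and 0 differed between muscles. With 1 value per treatment and replicate number, 3 against 3, 437 were higher, 394 lower and 220 called in no single muscle. Without DIA these were 449, 443 and 408, and without EDL 602, 502 and 671, with 2 that differed between muscles. Without EOM 760 were lower and 0 differed. Without DIA EAMG 2, DIA EAMG 3 and EOM EAMG 2, which stood apart in quality, they were 598, 653 and 556. Probe sets called in no single muscle were thus not most of those called in this last fit, without DIA or with 1 value per treatment and replicate number. Without EDL they still were. With 100 added to each signal 28 differed between muscles. With single muscles called at an unadjusted p under 0.05, 144 were called in none. Leaving out 1 array gave 950 to 1274 higher, 919 to 1184 lower, 1103 to 1603 in no single muscle and 6 to 31 that differed, the last without EDL EAMG 1. Why the counts moved was not tested.

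With the replicate number as a block 2614 probe sets were called, 2318 of them among the 2358. Deviations of arrays with the same number correlated above 0.1 in 10 of 18 pairs of muscles within a treatment (median 0.118) and in 7 of 9 pairs of treatments within a muscle (median 0.188). With different numbers this held for 6 of 36 (median -0.028) and 1 of 18 pairs (median -0.066), so that arrays with the same number were more alike, though not in every pair. With treatment and number together as a random block (correlation 0.0765) 1859 were called. Without the 3 arrays that stood apart, Cd36, Psmd2, Ccnd2 and Col1a1 were not called (adjusted p = 0.0709, 0.0587, 0.0578 and 0.0843 in limma). The number of arrays limits the precision.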

Other observations

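The remaining lists had these counts. Of 17 genes of lipolysis and lipid storage 6 rose and 1 fell. Of 29 genes of RNA splicing and processing 5 rose and none fell, and without the 3 arrays that stood apart 2 rose and 1 fell. Of 29 ubiquitin and sumo enzymes 4 rose and 2 fell, and of 23 genes of cAMP and G protein signalling 4 rose and 4 fell. Of 20 genes of TGF-beta, BMP and Wnt signalling 3 rose and 3 fell, of 28 of mitochondrial biogenesis and import 2 and 2, of 12 of purine nucleotides and creatine 2 and 3, and of 19 of cholesterol and fat synthesis 1 and 3. Adcy2, an adenylyl cyclase, was at 1800 to 3270 (median 2020) on control and 3080 to 5590 (median 4200) on EAMG arrays and rose by 0.86 (SE 0.09, limma adjusted p = 1.59e-05). Gamt, which completes the synthesis of creatine, was at 518 to 869 on control and 219 to 442 on EAMG arrays, without overlap, and changed by -0.95 (SE 0.15).

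Among the marker lists, 1 of 2 tested eye muscle genes fell, and of 7 tested markers of smooth muscle and pericytes 2 fell. The tested neutrophil marker S100a9 rose by 0.82 (limma adjusted p = 0.0461), a call that held in 6 of 18 fits with 1 array left out and not without the 3 arrays that stood apart (0.141), with 5 of the 6 neutrophil markers under 400 on every array. S100a9 itself was under 400 on every control array and passed the signal minimum through EAMG arrays alone. None was called among 4 Schwann cell, 6 adipocyte, 2 satellite cell, 1 B cell and 1 surface epithelium markers, and no melanocyte marker was tested. The 10 surface epithelium markers summed to 369 to 2450 on control and 479 to 5392 on EAMG arrays.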
